A study of Mus musculus with 16 samples.

Results

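Ccr7, Fscn1, Socs2, Cacnb3, Marcksl1, Il4i1, Tmem123 and Serpinb6b are genes of CCR7-positive mature dendritic cells (DCs), and their expression was followed in splenic DC subsets of wild-type (WT) and Trim33-deficient (cKO) mice. These 8 genes were looked up by gene ID among the 17721 genes of the cDC table and the 17128 genes of the pDC table, and all 8 were found in both. They were chosen from general knowledge of mature DCs with results of these libraries already known, among them the low Ccr7 of cKO cDC1s, so that the cDC1 comparison is described here without a test. Trim33 encodes a nuclear TRIM family protein that acts in transcription. All mice carried floxed Trim33 alleles on a C57BL/6 background and were 6 to 8 weeks old: WT mice were Trim33 fl/fl, and cKO mice were Trim33 fl/fl Itgax-Cre, labelled Trim33-/-, in which Cre under the promoter of Itgax (CD11c) acts in CD11c-expressing cells. RNA-seq was done on 16 libraries: 3 WT and 3 cKO libraries of plasmacytoid DCs (pDCs, CD11c+ SiglecH+), 2 and 2 of cDC1s (SiglecH-, MHC II+ and CD24+, without CD172a) and 3 and 3 of cDC2s (SiglecH-, MHC II+ and CD172a+, without CD24). Each library pooled cells of several mice, and a cKO library drew on more mice than a WT library.

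DCs that take up antigen or sense danger mature: they slow antigen uptake, raise costimulatory molecules and cytokines, and switch on the chemokine receptor CCR7, which guides them along CCL19 and CCL21 gradients into T cell zones. In the spleen, CCR7-positive DCs move into the white pulp. The products of the other 7 genes have different functions. Fscn1 encodes fascin, which bundles actin in the dendrites of mature DCs, and Marcksl1 a membrane-bound regulator of actin. Socs2 is a feedback inhibitor of cytokine receptor signalling, and Il4i1 a secreted enzyme that breaks down phenylalanine. Cacnb3 encodes a beta subunit of voltage-gated calcium channels, Tmem123 the surface mucin porimin, and Serpinb6b an intracellular inhibitor of serine proteases.

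On GRCm38.p6, Ccr7 lies on chromosome 11 at 99144199 to 99155077, Fscn1 on chromosome 5 at 142960355 to 142973189, Marcksl1 on chromosome 4 at 129513581 to 129515981, and Socs2 on chromosome 10 at 95383903 to 95417321. Cacnb3 lies on chromosome 15 at 98628436 to 98644536, Il4i1 on chromosome 7 at 44836288 to 44840809, Tmem123 on chromosome 9 at 7764077 to 7794333, and Serpinb6b on chromosome 13 at 32956811 to 32979067. The genes thus lie on 8 chromosomes and do not neighbour each other.

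RefSeq promoter windows, which run from 250 bases before a transcript start to 50 bases after it, were at hand for 6 of the 8 genes. No window was at hand for Ccr7 or Socs2, so their promoters were not searched. The 6 genes gave 8 windows, since Tmem123 and Cacnb3 have 2 windows each. Motifs of factors active in DC maturation were searched on both strands: the kB motif of NF-kB by its name, the AP-1 motif TGANTCA, the IRF motif GAANNGAAA and the ETS motif AGGAAGT, which is also read by PU.1. Of all 32851 windows in the table, 8.46% held the kB motif, 7.81% the AP-1, 7.52% the IRF and 9.35% the ETS motif. None of the 8 windows held the kB, AP-1 or IRF letters, and 1 window, that of Il4i1, held the ETS letters, on the minus strand from 133 bases before the start. The 8 windows were richer in G and C than the table (median 62.7% against 52.7%) and held a median of 19.5 CG dinucleotides against 7 in the table. The windows with fewer CG dinucleotides than the table's median were those of Il4i1 with 3 and Serpinb6b with 4. The windows printed here are those of Fscn1, a CG-rich example whose gene had the largest fold between its WT cDC1 libraries, of Il4i1, which holds the 1 match (in capitals, 7 bases), and of Serpinb6b, which moved in the opposite direction in pDCs. All 3 lie on the plus strand of GRCm38.p6, at chr5:142960105-142960404 (21 CG dinucleotides), chr7:44836038-44836337 and chr13:32965011-32965310, and their last 50 bases begin the transcript. The start used for Serpinb6b lies within the annotated span of the gene, not at its first position.
Fscn1: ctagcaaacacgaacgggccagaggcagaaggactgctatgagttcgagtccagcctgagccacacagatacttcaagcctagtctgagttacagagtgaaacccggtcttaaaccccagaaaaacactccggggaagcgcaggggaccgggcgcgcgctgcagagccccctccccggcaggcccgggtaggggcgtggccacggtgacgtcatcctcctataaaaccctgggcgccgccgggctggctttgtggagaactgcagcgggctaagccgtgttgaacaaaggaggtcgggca
Il4i1: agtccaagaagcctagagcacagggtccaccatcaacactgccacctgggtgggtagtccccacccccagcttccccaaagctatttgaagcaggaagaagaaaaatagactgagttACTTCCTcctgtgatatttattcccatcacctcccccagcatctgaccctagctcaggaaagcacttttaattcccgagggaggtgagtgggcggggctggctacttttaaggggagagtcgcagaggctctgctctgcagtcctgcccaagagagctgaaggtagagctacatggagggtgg
Serpinb6b: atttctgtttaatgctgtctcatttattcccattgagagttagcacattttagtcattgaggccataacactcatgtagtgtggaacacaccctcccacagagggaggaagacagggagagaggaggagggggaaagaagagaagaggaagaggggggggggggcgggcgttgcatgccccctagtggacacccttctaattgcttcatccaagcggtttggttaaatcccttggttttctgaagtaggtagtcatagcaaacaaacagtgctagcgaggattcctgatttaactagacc

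Expression is given as TPM, a share of the transcripts in a library after scaling reads by transcript length, so that levels of different genes can be set side by side. Estimated depths ran from 18.0 to 20.15 M reads, at which 1 TPM on a 2000-base transcript is worth 16.85 to 21.87 reads. Log2 fold changes are cKO over WT on the log2(TPM + 1) scale, which understates changes of low genes, and their errors are standard errors (SE) from limma. A gene was called at a Benjamini-Hochberg adjusted p of at most 0.01 and a change of 0.5 or more on the log2 scale in either direction, over 11411 genes tested in cDCs and 11299 in pDCs. Trim33 was lower in every cKO library than in any WT library of its subset: 7.71 and 7.88 against 15.5 and 18.2 TPM in cDC1s, 7.13 to 8.07 against 17.2 to 20.6 TPM in cDC2s, and 11.7 to 16.5 against 20.6 to 23.8 TPM in pDCs, where it was not a call (−0.68, SE 0.13, adjusted p = 0.0301 by limma). Subset markers followed the sort labels: the 9 cDC1 genes summed to 3506 to 4189 TPM in cDC1s and at most 625 TPM in cDC2s, and the 8 cDC2 genes to 1413 to 1771 TPM in cDC2s and at most 69.7 TPM in cDC1s. Both sums were lower in cKO libraries of their own subset. The cDC1 genes were at 3506 and 3517 TPM in cKO against 4009 and 4189 TPM in WT cDC1s. The cDC2 genes were at 1413 to 1643 TPM in cKO against 1645 to 1771 TPM in WT cDC2s. The 8 pDC genes summed to 15828 to 17005 TPM in pDCs and at most 298 TPM in cDCs. In pDC libraries the cDC2 genes summed to 2001 to 2305 TPM, above their sums in cDC2s. That list thus does not set cDC2s apart from pDCs. In cDC1s the median fold change of all genes was 0.17 and 1806 genes were called higher against 749 lower (70.7% higher). After median-of-ratios scaling that median was 0.02 and 50% of the calls were higher, so a fold change in cDC1s lies about that shift further down relative to the typical gene.

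All 8 genes were expressed in WT cDCs. Ccr7 was the most abundant of them in WT cDC1s, at 694 and 417 TPM (555.5 ± 195.3, SD, n = 2), and was at 347, 298 and 163 TPM in WT cDC2s (269 ± 95.1, SD, n = 3). Its levels fell into the order WT cDC1, WT cDC2, cKO cDC2, cKO cDC1 and then both pDC groups, and of neighbours in that order only the 2 pDC groups overlapped. Fscn1 and Socs2 had the same order of cDC groups, with WT cDC1s and WT cDC2s overlapping. Socs2 was the least abundant of the 8 genes in WT cDC1s, at 64.2 and 27.9 TPM. Cacnb3 shared that order too, and its cKO cDC2 and cKO cDC1 groups overlapped.

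Marcksl1 and Il4i1 were ordered differently, with WT cDC2, cKO cDC2 and WT cDC1 libraries overlapping from one to the next and cKO cDC1s apart below them. Marcksl1 averaged 378 ± 65.8 TPM in WT cDC2s, 345 ± 38.2 in cKO cDC2s (SD, n = 3 each) and 275 ± 99.6 in WT cDC1s (SD, n = 2). Serpinb6b stood out as a gene of cDC1s: at 346 and 253 TPM in WT cDC1s it was 8.78-fold above WT cDC2s, on the log2(TPM + 1) scale a difference of 3.13 (SE 0.27), and it was still 4.75-fold higher in cKO cDC1s than in cKO cDC2s. Ccr7 and Cacnb3 were higher in WT cDC1s than in WT cDC2s by 1.07 (SE 0.38) and 1.33 (SE 0.47), whereas the log2 differences of Fscn1, Socs2, Marcksl1, Il4i1 and Tmem123 lay between −0.49 and 0.41. In cKO mice 7 of the 8 genes were lower in cDC1s than in cDC2s, by 0.75 (Cacnb3, SE 0.47) to 2.75 (Il4i1, SE 0.36) on the log2 scale, with Serpinb6b the exception. These subset differences share libraries with the cDC1 comparison and are given as descriptions.

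**Figure D1:**
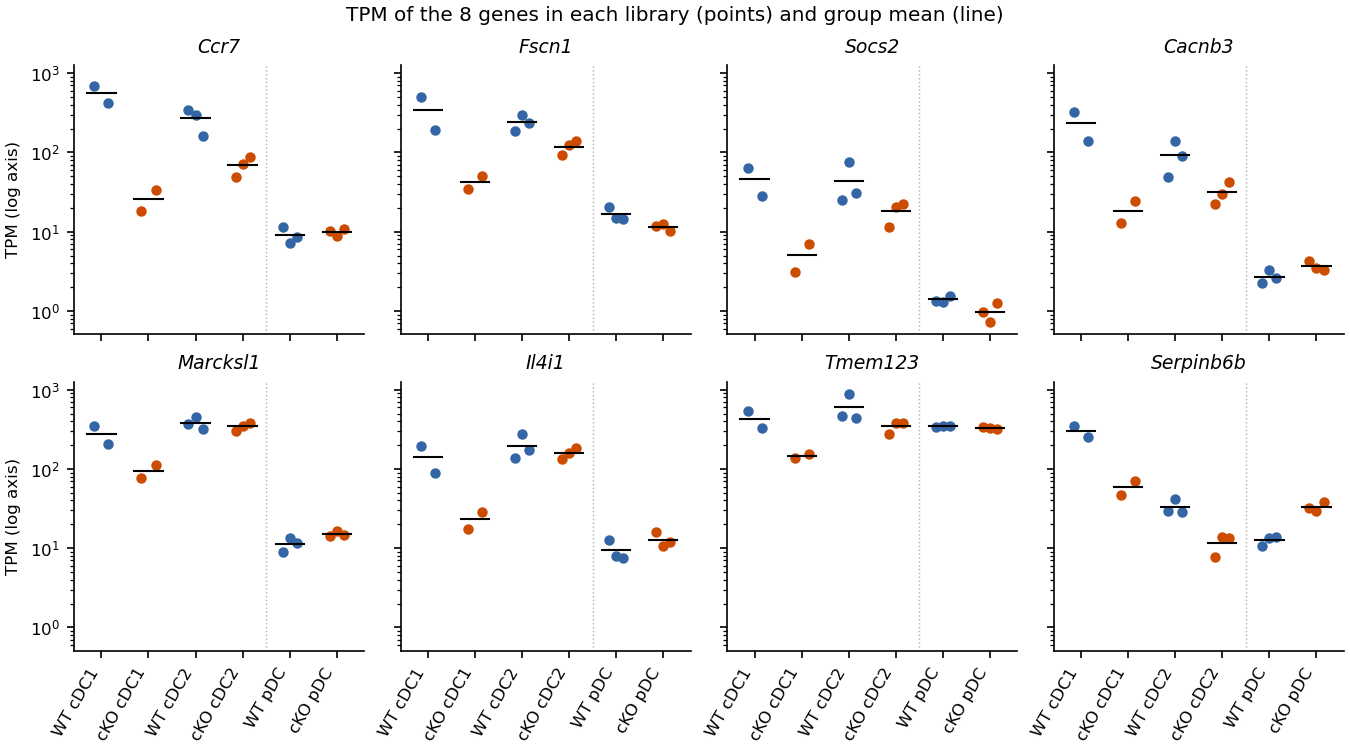
TPM on a log axis of the 8 genes in each of the 16 libraries (points, WT blue, cKO orange) with group means (black lines); the dotted line divides the separately normalised cDC and pDC tables. Ccr7 falls from 694 and 417 TPM in WT cDC1s to 18.5 and 33.7 TPM in cKO cDC1s, Tmem123 stays above 100 TPM in every group, and Serpinb6b is higher in cKO than in WT pDCs.

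In pDCs 7 of the 8 genes were below 40 TPM. Socs2 was at 0.720 to 1.55 TPM, a level of few reads, and Cacnb3 at 2.22 to 4.30 TPM. Ccr7, Fscn1, Il4i1 and Marcksl1 were between 7.19 and 20.3 TPM in all 6 pDC libraries, and Serpinb6b between 10.7 and 37.8 TPM. Tmem123 was at 318 to 350 TPM, near its level in cKO cDC2s, and Serpinb6b values also lay near those of cDC2s. The pDC and cDC values come from tables that were normalised separately and list different genes, so these levels are side by side without a test.

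The comparison of cKO with WT cDC1s, from which Ccr7 was known, showed lower values of all 8 genes. Ccr7 was at 18.5 and 33.7 TPM in cKO cDC1s, which is 4.69% of the WT mean, a log2 fold change of −4.37 (SE 0.41). Every one of the 8 genes was lower in both cKO libraries than in either WT library, where 24.1% of all genes tested separated in this way. All 8 met the threshold of a call, against 6.56% of genes called lower. Since the choice of genes used this comparison, nothing is read from these counts.

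The 2 actin regulators differed in size. Fscn1 was at 501 and 194 TPM in WT cDC1s and at 34.15 and 50.5 TPM in cKO cDC1s, 12.2% of the WT mean. Marcksl1 was at 345 and 205 TPM in WT and at 75.8 and 111 TPM in cKO cDC1s, 34.0% of the WT mean. Their log2 fold changes were −2.88 (SE 0.40) and −1.52 (SE 0.26). Both genes separated the genotypes, but WT libraries of Fscn1 lay further apart from each other.

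Of the signalling genes, Cacnb3 came next to Ccr7, at 324 and 141 TPM in WT and 12.8 and 24.1 TPM in cKO cDC1s, with a log2 fold change of −3.53 (SE 0.52). Socs2 went with it, at 3.11 and 6.91 TPM in cKO cDC1s and a fold change of −2.93 (SE 0.55). Il4i1 was at 196 and 89.3 TPM in WT and at 17.7 and 29.0 TPM in cKO cDC1s, a fold change of −2.49 (SE 0.39). In each of these genes the cKO libraries were all far below the lower WT library.

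Serpinb6b was at 47.2 and 70.15 TPM in cKO cDC1s, 19.6% of the WT mean (log2 fold change −2.34, SE 0.30). Tmem123, at 535 and 328 TPM in WT and 138 and 153 TPM in cKO cDC1s, had a fold change of −1.52 (SE 0.33), like that of Marcksl1. With 2 libraries a group these values hang on single libraries: without WT cDC1 library 1, 5 of the 8 genes met the threshold, and without cKO cDC1 library 1, 3 did, while no setting turned the direction of any of the 8. Leaving out 1 library could not turn a direction, as both cKO libraries lay below both WT libraries in each gene. As these are bulk libraries, fewer mature cells among the sorted cDC1s and less RNA of these genes per cell cannot be told apart.

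**Figure D2:**
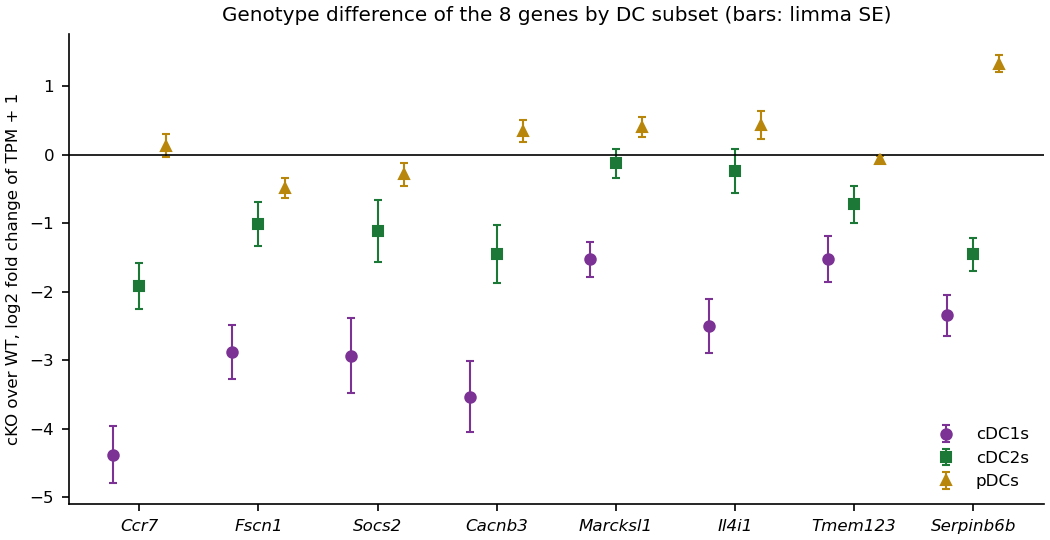
Log2 fold change of TPM + 1, cKO over WT, of the 8 genes in cDC1s (circles), cDC2s (squares) and pDCs (triangles), with limma SE as bars. All cDC1 values lie below −1.5, cDC2 values run from −1.91 (Ccr7) to −0.13 (Marcksl1), and pDC values lie around 0 except that of Serpinb6b at 1.33.

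In cDC2s the same genes were compared in libraries other than those of the low Ccr7 known at the choice. Other results of these data were known at the choice as well, and the fit shares its spread with the cDC1 libraries. The p-values given for cDC2s are thus not independent of that choice. Ccr7 was at 48.7, 71.2 and 88.3 TPM in cKO cDC2s, all below the 163 to 347 TPM of WT cDC2s, and averaged 25.8% of WT (69.4 ± 19.9, SD, n = 3). In log2 terms the change was −1.91 (SE 0.34) with an adjusted p of 0.00440 by limma, so Ccr7 fell in cKO cDC2s by the threshold set. Serpinb6b was the other gene that passed: it fell from 29.8, 41.7 and 28.4 TPM to 7.67, 13.9 and 13.5 TPM, or −1.45 in log2 terms (SE 0.24) with an adjusted p of 0.00353 by limma. Thus 2 of the 8 genes were called lower, where 3.56% of the genes tested were.

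Both calls lie near the threshold. That of Ccr7 was lost under 7 of 19 alternatives, with adjusted p values of 0.00153 to 0.0223 by limma: without a filter on low genes, with the replicate number as a block, and on leaving out any cKO cDC2 library or WT cDC2 library 1 or 2 (0.0105 to 0.0175). Serpinb6b lost its call in 3 of 19 (0.00344 to 0.0133), namely without the filter, without WT cDC2 library 2 and without cKO cDC2 library 3. Without WT cDC2 library 2 or cKO cDC2 library 3, 0 of the 8 genes were called, and 1 was called without WT cDC2 library 1 or cKO cDC2 library 1 or 2.

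The other 6 genes did not pass in cDC2s. Cacnb3 had values of 48.3, 138 and 89.0 TPM in WT and 22.2, 29.6 and 41.8 TPM in cKO cDC2s, which do not overlap, and changed by −1.45 in log2 terms (SE 0.42) with an adjusted p of 0.0384 by limma. Fscn1 (−1.004, SE 0.32, adjusted p = 0.0530), Socs2 (−1.11, SE 0.45, adjusted p = 0.113) and Tmem123 (−0.72, SE 0.27, adjusted p = 0.0868) also kept every cKO library below every WT library. In all, 6 of the 8 genes separated in this direction, against 19.2% of the genes tested.

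Il4i1 and Marcksl1 are the 2 genes whose cDC2 libraries overlapped. Il4i1 was at 136, 273 and 175 TPM in WT and at 135, 158 and 185 TPM in cKO cDC2s (log2 fold change −0.24, SE 0.32, adjusted p = 0.638 by limma). Marcksl1 was at 304 to 380 TPM in cKO and 315 to 446 TPM in WT cDC2s (−0.13, SE 0.21, adjusted p = 0.713). A p of this size does not show that they were equal, and without WT cDC2 library 2 both values turned slightly positive (0.0339 for Il4i1 and 0.0015 for Marcksl1). Over the 8 genes the cDC2 fold changes had a median of −1.06, beside −0.03 over all genes tested.

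The cDC1 fold change was the more negative in all 8 genes. The difference (cDC1 minus cDC2 effect, log2) was −2.46 (SE 0.53) for Ccr7, −2.26 (SE 0.51) for Il4i1 and −2.08 (SE 0.67) for Cacnb3. It was smallest for Tmem123 and Serpinb6b, at −0.80 (SE 0.43) and −0.89 (SE 0.39). These values rest on the cDC1 libraries and carry no test.

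In pDCs Serpinb6b rose. It was at 10.7, 13.3 and 14.0 TPM in WT and at 32.5, 29.8 and 37.8 TPM in cKO pDCs, 2.63 times the WT mean. This change, 1.33 in log2 terms (SE 0.13) with an adjusted p of 0.00257 by limma, was a call, and 1 of the 8 genes was thus called higher and 0 lower, against 0.814% and 0.239% of the genes tested. With the replicate number as a block, which brought the calls over all genes from 119 to 335, Serpinb6b was again the 1 gene of the 8 called (adjusted p = 0.000314). The call was lost without the filter (adjusted p = 0.0132), without WT pDC library 3 (0.0119) and without cKO pDC library 1 (0.0104), and was kept in the other 11 of 14 alternatives. Beside it, the cDC1 marker list summed to 379 to 409 TPM in cKO and 458 to 545 TPM in WT pDCs, so it was lower where Serpinb6b was higher. Summed T cell markers were 44.2 to 51.6 TPM in cKO and 25.05 to 34.5 TPM in WT pDCs, and the heat-shock genes summed to 5015 to 8733 and 3042 to 4853 TPM, so both were higher together with Serpinb6b. The monocyte and macrophage list holds Ly6c2, which the authors count as pDC-associated. Its sum was also higher in every cKO pDC library (6642 to 7016 against 5792 to 6448 TPM). The pDC markers (15828 to 16615 against 16677 to 17005 TPM) and the cDC2 markers (2001 to 2150 against 2212 to 2305 TPM) were lower in every one. The part of these lists in the result was not tested.

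The other 7 genes did not pass in pDCs. Ccr7 was at 11.6, 7.19 and 8.54 TPM in WT and at 10.1, 8.85 and 10.9 TPM in cKO pDCs (log2 fold change 0.13, SE 0.17, adjusted p = 0.688 by limma), and the groups overlapped. Marcksl1, at 8.84, 13.5 and 11.6 TPM in WT and 14.3, 16.5 and 14.7 TPM in cKO pDCs, was higher in every cKO library (0.41, SE 0.15, adjusted p = 0.173). Together with Serpinb6b this made 2 of 8 genes with every cKO above every WT library, where 10.8% of the genes tested were. Fscn1 (−0.48, SE 0.14, adjusted p = 0.116) and Socs2 (−0.28, SE 0.16, adjusted p = 0.375) were lower in every cKO library, 2 of 8 genes against 16.7% of the genes tested. Cacnb3, Il4i1 and Tmem123 overlapped, with fold changes of 0.34 (SE 0.16), 0.44 (SE 0.21) and −0.06 (SE 0.05). With the replicate number as a block, adjusted p values by limma were 0.025 for Il4i1, 0.0309 for Fscn1 and 0.0355 for Marcksl1. Those of Ccr7, Socs2, Cacnb3 and Tmem123 ran from 0.188 to 0.469, so none of the 7 was called with the block either. The median over the 8 genes was 0.24, beside −0.05 over all genes.

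Libraries of the same group differed in these genes in step. In WT cDC1s all 8 genes were higher in library 1 than in library 2, by 1.37 to 2.58 times, where 54.1% of the genes tested were higher in library 1. In cKO cDC1s all 8 were higher in library 2, by 1.11 to 2.22 times, against 39.1% of the genes tested. In WT cDC2s 7 of 8 were highest in library 2 (31.6% of the genes tested), and Ccr7 was the exception with its highest value in library 1. All 8 were lowest in cKO cDC2 library 1, against 23.9% of the genes tested. So a library high in one of the genes was mostly high in the others, in both genotypes.

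Over the deviations of the 10 cDC libraries from their group means, the 28 pairs among the 8 genes had Pearson r from 0.45 to 0.97, with a median of 0.84. The highest was that of Cacnb3 with Il4i1, and the lowest that of Ccr7 with Cacnb3. With Ccr7, the deviations of the other 7 genes correlated at 0.45 to 0.85 (Marcksl1), beside a median of −0.28 over 9511 other genes. These are descriptions across 10 libraries, and genes of 1 library share its depth and its cells. Deviations within a group sum to 0, and those of the 2 libraries of a cDC1 group mirror each other. The r thus rest on fewer independent values than 10, and pairs among other genes were not read beside the 28. The WT libraries that stood high in most of the 8 genes also held more erythroid RNA: the 5 erythroid genes summed to 2319 TPM in WT cDC1 library 1 and 278 TPM in library 2, and to 7959 TPM in WT cDC2 library 2 against 957 and 1510 TPM in libraries 1 and 3. In cKO libraries the erythroid sum ran the other way, being higher in the libraries where the 8 genes were low (909 against 737 TPM in cDC1s). The part of these cells in the result was not tested.

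**Figure D3:**
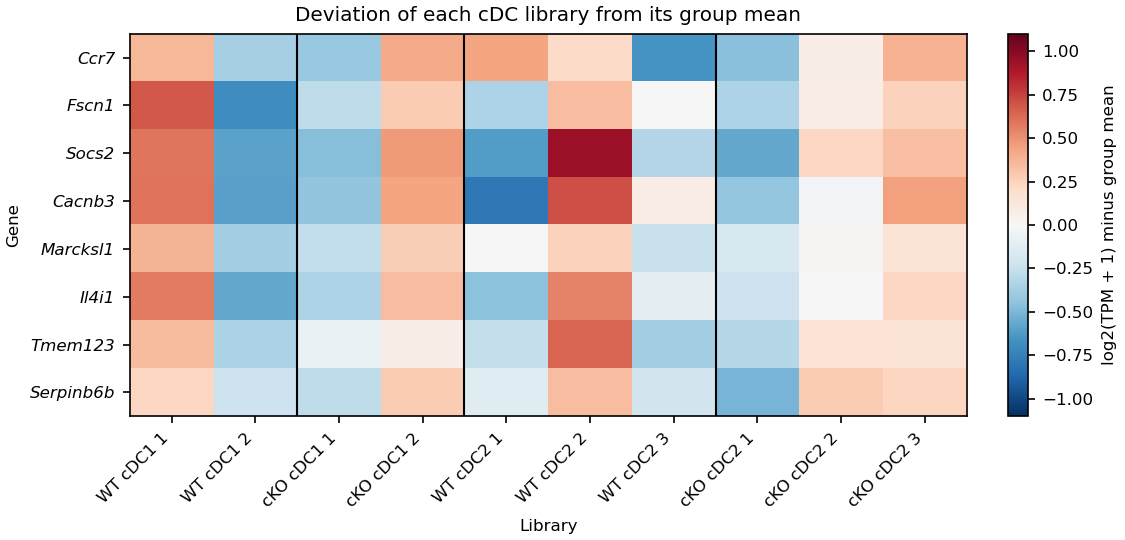
Deviation of each of the 10 cDC libraries (columns) from the mean of its group, in log2(TPM + 1), for the 8 genes (rows); red is above and blue below the group mean, and black lines divide the groups. All 8 genes are above the mean in WT cDC1 library 1 and below it in cKO cDC2 library 1, and in WT cDC2 library 2 all 8 are above it.

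Over all 10 cDC libraries, among 9518 genes with a mean of at least 5 TPM, the 10 genes whose log2(TPM + 1) went most closely with Ccr7 were Mxd1 (Pearson r 0.98), Ankrd33b (0.97), Plscr1 (0.97), Ccser2 (0.97), Rnf103 (0.97), H1f2 (0.96), Tuba1a (0.95), Basp1 (0.95), Cd83 (0.95) and Ccng2 (0.95). Mxd1 encodes a transcriptional repressor of the MYC and MAX network, Tuba1a an alpha tubulin, and Cd83 a surface molecule of mature DCs. Mxd1 was at 102 ± 33.7 TPM in WT and 13.7 ± 1.21 TPM in cKO cDC1s (SD, n = 2 each), and at 60.7 ± 11.3 and 21.9 ± 2.51 TPM in WT and cKO cDC2s (SD, n = 3 each). Within groups, the deviations of Tuba1a (0.93) and Basp1 (0.91) stayed closest to those of Ccr7 among the 10. Of the 8 genes, Fscn1 was most like Ccr7 (r 0.93, rank 27 of 9518) and Serpinb6b least (r 0.54, rank 943). Cacnb3 (0.93), Socs2 (0.89) and Tmem123 (0.80) came between, followed by Il4i1 (0.68) and Marcksl1 (0.65). By ranks (Spearman rho), Marcksl1, Il4i1 and Serpinb6b were less like Ccr7, at 0.47, 0.58 and 0.39. The libraries fall into 4 groups, so these r mostly follow the group means.

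A further 48 genes of mature DCs in 5 roles were read beside these 8 genes. They too were chosen with earlier results of these data known. In cDC1s, as a description, 34 of 48 were called lower and 1 higher, beside the 6.56% of all genes called lower and 15.8% called higher, and their median log2 fold change was −1.57 beside 0.17 over all genes. Genes of migration and chemokines had 8 of 9 called lower, among them Mreg (−3.37, SE 0.17), Ccl5 (−3.12, SE 0.31), Anxa3 (−3.04, SE 0.44) and Ccl22 (−2.92, SE 0.31), a chemokine that attracts regulatory T cells. Of the 11 costimulation and checkpoint genes 7 were called lower, and of the 12 metabolism and other signature genes 11 were, led by Gadd45b (−3.00, SE 0.47), Adcy6 (−2.76, SE 0.47) and Eno2 (−2.76, SE 0.39). Cytokine genes were split: Il12b, the shared subunit of IL-12 and IL-23, was at 85.3 ± 21.9 TPM in WT and 3.79 ± 1.46 TPM in cKO cDC1s (−4.18, SE 0.29, SD with n = 2 each), while 4 of 7 were not called. Of 9 NF-kB and survival genes 5 were called lower. Nfkb1, which encodes the p50 precursor, was the only one of the 48 that was higher, at 214 ± 6.73 against 117 ± 10.7 TPM (0.86, SE 0.13, n = 2 each). These counts hang on single libraries too: the count of 35 called in either direction was 23 without WT cDC1 library 1, 18 without cKO cDC1 library 1 and 24 without cKO cDC1 library 2.

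In cDC2s 7 of the 48 genes were called lower, beside the 3.56% of all genes called lower, and 0 higher, beside 3.59% of all genes. Cd86, a costimulatory ligand of CD28, averaged 95.0 ± 9.63 TPM in WT and 52.4 ± 5.77 TPM in cKO cDC2s (SD, 3 libraries each) and so fell by 0.85 in log2 terms (SE 0.11), with an adjusted p of 0.000927 by limma. Mreg, which encodes melanoregulin, fell from 165 ± 14.6 to 68.1 ± 4.32 TPM (−1.26, SE 0.14, adjusted p = 0.000401 by limma). These 2 calls were kept in all 19 alternatives. As the 48 genes were chosen with results of these data known, the p-values given for them are not independent of that choice.

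Cd83 fell from 341 ± 123 to 133 ± 18.0 TPM (−1.29, SE 0.26, adjusted p = 0.00778 by limma), and Ankrd33b from 9.83 ± 3.41 to 2.73 ± 1.09 TPM (−1.54, SE 0.29, adjusted p = 0.00610). Adam8, a membrane metalloprotease, fell by 0.75 (SE 0.14, adjusted p = 0.00538), Cd274, which encodes PD-L1, by 0.66 (SE 0.11, adjusted p = 0.00359) and Stat4 by 0.62 (SE 0.11, adjusted p = 0.00437). Of these 5 calls, each was lost under 5 to 12 of the 19 alternatives, with adjusted p values up to 0.0292. The count of 7 ranged from 2 (without WT cDC2 library 2 or cKO cDC2 library 3, and with the block) to 10, and was 3 without cKO cDC2 library 1 or 2 or without either cKO cDC1 library, whose spread enters the shared fit.

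By role, 3 of 11 costimulation and checkpoint genes, 2 of 9 of migration, 1 of 7 cytokine genes, 1 of 12 of the last group and 0 of 9 NF-kB genes were called in cDC2s. Fold changes above 0 were seen for Ccl22 (0.53, SE 0.25, adjusted p = 0.170 by limma), Clu (0.37, SE 0.36), Nfkb1 (0.31, SE 0.10, adjusted p = 0.0624), Laptm4b (0.10, SE 0.23), Ebi3 (0.05, SE 0.12) and Nfkb2 (0.04, SE 0.12). The median over the 48 was −0.47, beside −0.03 over all genes. Ccl22 thus had opposite signs in the 2 cDC subsets, at 24.6 ± 4.93 TPM in WT and 37.0 ± 12.8 TPM in cKO cDC2s (SD, n = 3 each).

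In pDCs 36 of the 48 genes passed the filter on low values and 0 were called by limma, while 10 of 36 had an unadjusted p under 0.05, as 2352 of all 11299 genes did. Their median was −0.09. Fold changes ran from −1.77 for Ccl5 (SE 0.36, adjusted p = 0.0366) to 0.51 for Cd83 (SE 0.18, adjusted p = 0.159). Genes with the sign opposite to most of their role were Anxa3 and Adam8 among migration genes, Nfkb1, Nfkbia and Bcl2l1 among NF-kB genes, Cd80, Cd274, Tnfrsf4 and Fas among ligands, Socs1 and Il2ra among cytokine genes, and Gadd45b, none of them called. The 12 genes left out averaged under 1 TPM over the pDC libraries.

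**Figure D4:**
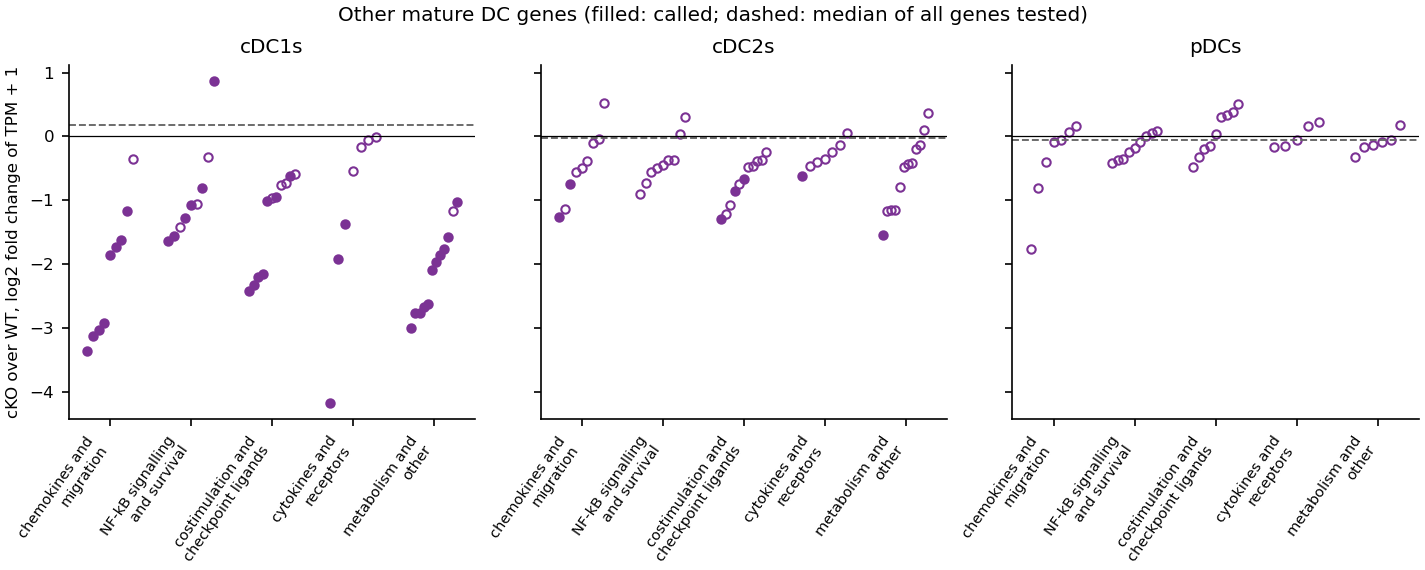
Log2 fold change of TPM + 1, cKO over WT, of the other mature DC genes by role in cDC1s, cDC2s and pDCs, sorted within each role (filled points were called, open points were not; the dashed line is the median of all genes tested). In cDC1s 34 of 48 points are called below 0 and Nfkb1 alone above it, in cDC2s 7 are called below 0, and in pDCs 0 of 36 are.

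CCR7 is also made by T cells and B cells, so their markers were read in the same libraries. The T cell list (9 genes in the tables) summed to 98.9 to 112 TPM in WT and 48.8 to 50.2 TPM in cKO cDC2s, and thus was lower together with Ccr7. Of these sums, Tcf7 made up 71.0 to 87.3 and 24.05 to 25.75 TPM, whereas Cd3d, Cd3e and Cd3g, which define T cells, were at 1.92 TPM or less in every cDC library. Within that range Cd3d (0.950 to 1.03 in WT and 0.480 to 0.690 TPM in cKO cDC2s) and Cd3e (0.710 to 1.11 and 0.510 to 0.650 TPM) were lower in every cKO than in any WT cDC2 library, as Ccr7 was, and their part in the result was not tested. In cDC1s the sum was 14.4 to 21.5 TPM in WT and 10.5 to 14.6 TPM in cKO libraries. The B cell list (9 genes) summed to 72.7 to 82.2 and 56.2 to 58.7 TPM in WT and cKO cDC2s and to 25.9 to 35.7 and 19.8 to 22.4 TPM in WT and cKO cDC1s, with Pax5 at most 0.340 TPM in cDCs. No T cell or B cell marker was at 0 in every library of a group. Monocyte and macrophage genes (11) were higher in cKO cDC2s, at 3204 to 4139 against 1925 to 2355 TPM.

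Genes induced by handling of tissue moved with genotype as well. The 10 immediate-early genes summed to 7760 and 13015 TPM in WT and 5034 and 5481 TPM in cKO cDC1s, and to 10654 to 27891 TPM in WT and 7295 to 8284 TPM in cKO cDC2s. The 8 heat-shock genes went the other way, at 4238 and 4370 against 8681 and 9789 TPM in cDC1s and 3742 to 6377 against 8430 to 10800 TPM in cDC2s. Within WT cDC1s the immediate-early sum was higher in library 2, where all 8 genes were lower. Within cKO cDC1s it was also higher in library 2, where all 8 genes were higher. In WT cDC2s it was highest in library 1 (27891 TPM), where Ccr7 was highest but none of the other genes was. In cKO cDC2s it was highest in library 3 (8284 TPM), as was Ccr7 (88.3 TPM). In pDCs the immediate-early sums overlapped (6070 to 7669 TPM in WT, 5300 to 6221 TPM in cKO). The part of handling in the fall of Ccr7 was not tested.

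**Figure D5:**
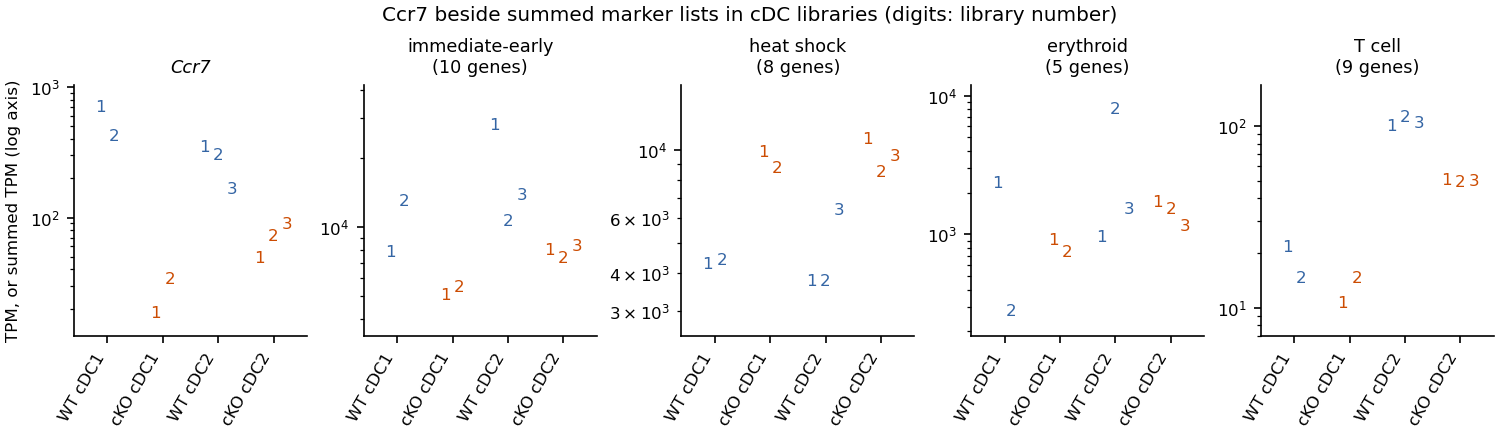
Ccr7 (TPM) beside the summed TPM of 4 marker lists in the 10 cDC libraries, on log axes; digits are library numbers, WT in blue and cKO in orange. Immediate-early and T cell sums are lower and heat-shock sums higher in cKO cDC2s, and the erythroid sum peaks at 7959 TPM in WT cDC2 library 2.

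Reads of some of the 8 genes could be shared with other genes. Socs2 overlaps Gm33230 in RefSeq, and Tmem123 overlaps Mir5618, which were not analysed here. Il4i1 overlaps Nup62, Atf5 and Tbc1d17 in GENCODE and Il4i1b in RefSeq. Nup62 was at 26.0 and 27.5 TPM in WT and 44.1 and 45.3 TPM in cKO cDC1s, opposite to Il4i1, Tbc1d17 was at 20.95 to 38.2 TPM and Atf5 at 7.78 to 13.7 TPM in all cDC libraries, and Il4i1b was at 1.56 TPM or less in all libraries. Serpinb6b has close paralogs: Serpinb6a was at 3.62 to 28.3 TPM in cDCs and 11.6 to 18.2 TPM in pDCs, where it did not pass (0.22, SE 0.15, adjusted p = 0.449 by limma), and Serpinb6c and Serpinb6e were at 0.1 TPM or less. How RSEM divided reads among these genes cannot be seen in the tables, and values of Il4i1 and Serpinb6b are uncertain to that extent.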

How the data were processed

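RNA was measured in 16 libraries of sorted splenic DCs, grouped by their titles. The authors filtered 50-base single-end BGISEQ-500 reads, mapped them with Bowtie2 2.2.5 and estimated expression with RSEM 1.2.12. The submitters' processing notes also name HISAT2 2.0.4. The transcript release is not given in the sources used here. TPM and FPKM values were deposited by the authors in separate tables for pDCs and cDCs, so no test was made across them. All 32 value columns were mapped to libraries. Gene IDs were named by RefSeq (GRCm38.p6), which covered 17079 of 17128 and 17667 of 17721 genes.

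Here, genes that averaged 1 TPM or more were fitted on log2(TPM + 1) with limma 3.58.1 in R 4.3.3 (eBayes with a trend, two-sided, Benjamini-Hochberg over all genes tested), with the thresholds of the authors' DESeq2 analysis. The fit for pDCs used 6 libraries, and that for cDCs used 10 as 4 group means. The series calls libraries of a group biological replicates without tying them to separate sorts, so p-values measure the spread between these libraries, which may in part be technical. Same-numbered pDC libraries deviated together (r 0.31, 0.39 and 0.21 across genes), which pairs them from the data, so pDC results were also fitted with the replicate number as a block. Depth was estimated from the spacing of low FPKM values (within 0.211% on simulated libraries), with 3 reads on 2000 bases worth 0.137 to 0.178 TPM. Reads without molecular identifiers make such limits cover counting error only. The fits were tested on simulated data. Plots (matplotlib 3.10.9) and sums (pandas 2.3.3, numpy 2.4.6) were made in Python 3.11.15.

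The 8 genes, the other lists and the motifs were chosen with earlier results of these data known. Genes were named by rule: the 8, for each comparison up to 8 called mature DC genes of largest fold change and those against the majority of their role, the 10 genes most like Ccr7, Trim33, and relatives or overlapping genes of the 8. Alternatives were a pseudocount of 0.1, no filter, a filter at 5 TPM, FPKM, median-of-ratios and quantile scaling, no trend, the block, fits of 1 subset alone and leaving out each library.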

Additional observations from a re-analysis of the deposited data

Results flagged for a closer look

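Some genes had every cKO library on one side of every WT library in pDCs and on the other side in a cDC subset. Of the 36 other mature DC genes tested in pDCs, 3 had every cKO above every WT library and 8 every cKO below. Over all genes tested these shares were 10.8% and 16.7% in pDCs. In cDC1s 24.1% and in cDC2s 19.2% of all genes tested had every cKO below every WT library. How many of all genes changed sides in this way was not counted. The difference between subsets was not tested, because the pDC and cDC tables were normalised separately. Serpinb6b had a log2 fold change of 1.33 in pDCs, −2.34 in cDC1s and −1.45 in cDC2s. Marcksl1 had 0.41 in pDCs and −1.52 in cDC1s. Cd83 had 0.51 in pDCs, −2.16 in cDC1s and −1.29 in cDC2s. Cd86 had 0.31 in pDCs, −0.62 in cDC1s and −0.85 in cDC2s. Both were low in pDCs: Cd83 at 1.74 to 3.06 TPM in WT and 3.95 to 4.17 TPM in cKO. Cd86 was at 4.88 to 6.62 TPM in WT and 6.65 to 8.03 TPM in cKO pDCs. Cd200, an immunoregulatory ligand, had 0.39 in pDCs and −0.77 in cDC1s. Of the pDC values, that of Serpinb6b was a call. Groups of 2 or 3 libraries were too small to look for single outlying libraries.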

How the results depend on the processing

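Fold changes of the 8 genes kept their direction under every alternative in cDC1s. Both cKO libraries lay below both WT libraries in each gene, so leaving out 1 library could not turn it. Nothing is read from this. The exceptions elsewhere came from leaving out 1 library: Ccr7 in pDCs (−0.0062 without WT pDC library 2, up to 0.3046 without WT pDC library 1), and in cDC2s without WT cDC2 library 2 Il4i1 (0.0339, down to −0.4636 without WT cDC2 library 1) and Marcksl1 (0.0015, down to −0.249 without WT cDC2 library 3). Leaving out each library in turn, 3 to 8 of the 8 genes were called in cDC1s, 0 to 2 in cDC2s and 0 to 1 in pDCs. The other mature DC genes called then ranged from 18 to 37 in cDC1s and 2 to 10 in cDC2s, and all genes called from 800 to 2888 in cDC1s, 316 to 907 in cDC2s and 12 to 97 in pDCs. The lone sample of a cDC1 group is then assumed to vary like the other groups. Without a filter 0 of the 8 genes were called in pDCs and in cDC2s, 4 of the other mature DC genes in cDC2s, and 24 of all genes in pDCs against 119, with more genes tested. Without a trend, 56 genes were called in pDCs. In a fit of cDC2s alone 4 of the other mature DC genes and 444 of all genes were called, with fewer samples in the fit. Where no cause is named, the cause was not tested.

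Same-numbered cDC libraries did not pair (r −0.23 in cDC1s, −0.25 to 0.25 in cDC2s). With the replicate block 335 genes were called in pDCs, and in cDC2s 1 of the 8 genes (Serpinb6b), 2 of the other mature DC genes and 356 of all genes, and it changed no other call of the 8 genes. With the cDC1 numbers crossed, an alternative chosen after seeing the data, 8 of the 8 genes, 32 of the other mature DC genes and 2091 of all genes were called in cDC1s. Depth limits Socs2 in pDCs most, at about 1 TPM.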
